A study of Plutella xylostella with 6 samples.

Results

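PxMucin (LOC105381635) is the mucin-like gene that the study followed in larvae of the diamondback moth Plutella xylostella exposed to DMNT, a volatile homoterpene of plants. It is described here together with LOC105395714 and with the peritrophin genes LOC105386546 and LOC105381868. The study lists both LOC105395714 and LOC105381868 as homologs of PxMucin. The closest homolog on its list is not among the genes described here. The 4 genes were chosen by name, with no threshold on measured values, and make up 4 of the 21946 rows of the deposited expression table. All 4 were among the 17709 rows with a mean FPKM of at least 0.5 that were tested. FPKM is the number of fragments scaled by transcript length and by mapped fragments, and is the scale on which levels of different genes are compared. CPM is the count scaled by library size alone, after TMM scaling of the libraries, and is the scale on which 1 gene is compared between libraries.

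The peritrophic matrix is a sheet of chitin fibres and glycoproteins that lines the insect midgut and separates the food and its microbes from the epithelium. Mucins carry long stretches of serine and threonine to which sugar chains are attached, and they give the matrix its gel. Peritrophins bind chitin through cysteine-rich domains and cross-link its fibres.

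Whole second-instar larvae gave the RNA of 3 control libraries and of 3 DMNT libraries, the latter taken after 12 hr of treatment. No strain, genotype or sex was given for the larvae, and the labels do not say what the controls received. The dose for these libraries and the number of larvae behind each are not given separately in the sources used here, so each p-value here is a measure of the spread among these libraries alone, which may be technical. In bulk RNA of this kind, fewer cells of a type and less RNA per cell cannot be told apart.

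The total count per library was 39853422 to 56381123, and a count of 0 would leave room for up to 3 counts, or 0.0532 to 0.0753 CPM. These limits cover counting error only. Markers of every tissue looked for were present in each library: digestive enzymes of the midgut summed to 25481 to 29628 CPM, muscle genes to 28585 to 42868, cuticle genes to 7013 to 16199, silk gland genes to 3719 to 6247, fat body genes to 2017 to 11689 and nervous system genes to 304 to 364. The summed fat body markers were lowest in DMNT replicate 3 and highest in DMNT replicate 2, and the summed cuticle genes were lowest in DMNT replicate 1. The summed midgut enzymes did not overlap between the groups, at 25481, 27266 and 27144 CPM in the control and 29628, 28205 and 29258 after DMNT. That is a difference of 0.12 on the log2 scale (exact permutation test, two-sided, p = 0.1, the smallest p that 3 against 3 libraries can give). The part of these tissue differences in the values below was not tested, except where a level relative to the midgut enzymes is given.

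In the deposited annotation PxMucin is described as mucin-2-like and LOC105386546 and LOC105381868 as peritrophin-1 and peritrophin-1-like. LOC105395714, which the study treats as a mucin homolog, carries the description cell wall protein DAN4-like, a name taken from a serine- and threonine-rich protein of yeast. PxMucin and LOC105381868 share an assignment to chitinase in the orthology column, and LOC105395714 and LOC105386546 have no entry there. The table lists 4 transcripts for PxMucin and 1 for each of the others. The study's methods use the following primers for PxMucin, and they are shown because they define which stretches of the gene were measured by RT-PCR, in treated larvae and after silencing, and which was the template for silencing by double-stranded RNA. The tail shared by the primers for double-stranded RNA was removed, and all are written 5′ to 3′ in lower case, with no part marked.
PxMucin, forward, qRT-PCR: ctgcctcatgagactgaatg
PxMucin, reverse, qRT-PCR: tctccactgacgctgatctc
PxMucin, forward, double-stranded RNA: atcactgaagctcagactgtcg
PxMucin, reverse, double-stranded RNA: cgcagtagtagaacttgtcgcag
PxMucin, forward, RT-PCR after silencing: aacctcgtcgagcactcttg
PxMucin, reverse, RT-PCR after silencing: gagctttatgtatttgttcgat

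The 4 genes spanned a wide range of abundance. In the control libraries PxMucin had 17.25, 24.09 and 24.95 FPKM, and after DMNT it had 14.5, 20.6 and 19.5 FPKM. It thus stood above 82.0% to 88.8% of all rows of the table in each library, a moderately high level. LOC105395714 had 1.14, 1.32 and 0.58 FPKM in the control and 0.33, 1.31 and 1.35 FPKM after DMNT, above only 17.2% to 33.7% of rows. The peritrophins were among the most abundant transcripts of the larva. LOC105386546 had 625, 433 and 527 FPKM in the control and 404, 381 and 585 FPKM after DMNT, which placed it between rank 210 and rank 303 of the table. LOC105381868 had 426, 416 and 458 FPKM in the control and 524, 344 and 404 FPKM after DMNT, between rank 240 and rank 325.

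The order of levels was tested for the 3 neighbouring pairs with an exact sign-flip permutation test over the 6 libraries (two-sided, smallest possible p = 0.03125). The order was taken from the mean FPKM of these same libraries. The p-values therefore describe how steady it was between libraries and are no independent support for it. LOC105386546 was higher than LOC105381868 in 5 of 6 libraries, with a geometric mean ratio of 1.14 and single ratios of 0.772 to 1.47, so the peritrophins did not differ beyond their spread (exact p = 0.25). DMNT replicate 1 was the library in which LOC105381868 was the higher of the peritrophins. LOC105381868 exceeded PxMucin 21.5-fold (16.7 to 36.2, 6 of 6 libraries, exact p = 0.03125, Benjamini-Hochberg adjusted p = 0.0469 over 3 pairs). PxMucin in turn exceeded LOC105395714 22.2-fold (14.5 to 43.9, 6 of 6 libraries, exact p = 0.03125, adjusted p = 0.0469). The peritrophin messages were therefore far more abundant per length than those of PxMucin and LOC105395714 in every library.

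**Figure D1:**
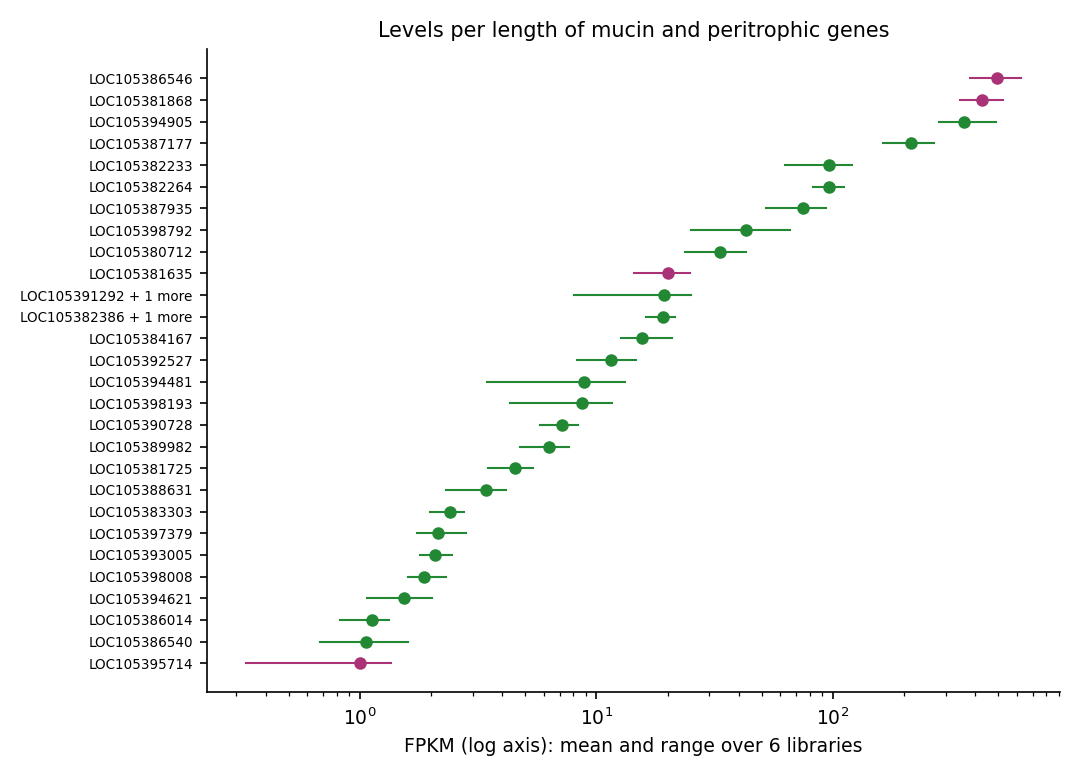
Level of the 28 genes of the peritrophic matrix and mucin set with a mean FPKM of at least 0.5, ordered by mean, on a log10 axis in FPKM. Points are means over the 6 libraries and lines run from the lowest to the highest library, with the 4 genes described here in purple and the others in green. The peritrophins LOC105386546 and LOC105381868 hold the 2 highest places, PxMucin is in place 10 and LOC105395714 is last.

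A broader set gives the scale of these levels. It held 35 rows whose description names a peritrophin, a mucin, a chitin-binding protein or a chondroitin proteoglycan, and LOC105395714 was added to it, which gave 36. LOC105386546 made up 19.4% to 30.4% of the summed FPKM of this set (mean 24.9%). LOC105381868 made up 19.6% to 25.1% (mean 21.6%). PxMucin contributed 0.694% to 1.24% (mean 1.03%), and LOC105395714 0.0158% to 0.0748%. Together the 4 genes held 42.7% to 52.2% of the set, nearly all of it from the peritrophins. The mucin-19-like gene LOC105394905 and another peritrophin-1-like gene, LOC105387177, followed the peritrophins, with means of 358.6 and 214.1 FPKM. PxMucin, at a mean of 20.15 FPKM, held place 10, behind 4 genes described as mucin-19-like or mucin-22-like, a mucin-1-like gene and a chondroitin proteoglycan-2-like gene. Its place in the set describes RNA of the whole body, in which mucins of other tissues are also counted.

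The count of PxMucin was 2214, 2717 and 3032 in the control libraries and 1559, 2564 and 1778 in the DMNT libraries. Scaled for depth, this was 38.6, 51.3 and 59.1 CPM in the control and 33.5, 46.9 and 46.4 CPM after DMNT. DMNT replicate 1 had the lowest value and control replicate 3 the highest, and the groups overlapped, since control replicate 1 lay below DMNT replicates 2 and 3. The means were 49.7 ± 10.3 CPM in the control and 42.2 ± 7.59 CPM after DMNT (SD, n = 3 each). On the log2 scale this was a difference of -0.23 (standard error 0.20, 95% interval -0.71 to 0.24), which is a fold of 0.850 with an interval of 0.613 to 1.18. EdgeR's quasi-likelihood test gave p = 0.287 (Benjamini-Hochberg adjusted p = 0.9999), and an exact permutation test over the 6 libraries gave p = 0.4 (two-sided, smallest possible p 0.1). A fall of PxMucin to below 0.613 of the control level thus lies outside the interval of these libraries. The study reported lower PxMucin by qRT-PCR, on midgut RNA and at a later time. The bound holds for whole larvae at 12 hr and does not bear on that result. In 3 of 3 pairs of libraries that carry the same number, the DMNT library was the lower. The log2 fold change was -0.39 without control replicate 1 and -0.09 without control replicate 3 or without DMNT replicate 1.

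LOC105395714 was counted 62, 63 and 30 times in the control libraries and 16, 69 and 52 times in the DMNT libraries, or 1.08, 1.19 and 0.584 CPM against 0.343, 1.26 and 1.36 CPM. The low values were those of DMNT replicate 1, whose 16 counts have an exact Poisson interval of 0.196 to 0.558 CPM for counting error alone, and of control replicate 3, with an interval of 0.394 to 0.834 CPM. Both intervals lie below the lower bound of DMNT replicate 2, which is 0.981 CPM. The group means of 0.952 ± 0.323 and 0.987 ± 0.559 CPM (SD, n = 3 each) overlapped widely. The log2 fold change was 0.05 (standard error 0.55, 95% interval -1.23 to 1.32; edgeR's quasi-likelihood test, p = 0.932, Benjamini-Hochberg adjusted p = 0.9999), and the exact permutation test gave p = 1. The interval spans folds of 0.427 to 2.50, so a fall or a rise of 2-fold lies inside it and was not detectable at this depth and spread. Its estimate was 0.46 without DMNT replicate 1 and 0.24 without control replicate 2, but -0.20 without control replicate 3 and -0.24 without DMNT replicate 3.

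Peritrophin-1 LOC105386546 had 559, 369 and 499 CPM in the control and 374, 347 and 555 CPM after DMNT. Both groups held low and high libraries: control replicate 1 and DMNT replicate 3 were at nearly the same level, and control replicate 2 lay with DMNT replicates 1 and 2. The means were 476 ± 97.3 and 425 ± 113 CPM (SD, n = 3 each). The difference on the log2 scale was -0.16 (standard error 0.22, 95% interval -0.68 to 0.36; edgeR's quasi-likelihood test, p = 0.494, Benjamini-Hochberg adjusted p = 0.9999; exact permutation p = 0.7). Leaving out DMNT replicate 3 gave -0.40, and leaving out control replicate 1 or DMNT replicate 2 gave -0.03.

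Peritrophin-1-like LOC105381868 had 303, 282 and 345 CPM in the control and 386, 249 and 305 CPM after DMNT. The DMNT libraries held both its lowest and its highest value, on either side of all control libraries. The means were 310 ± 32.2 and 313 ± 68.4 CPM (SD, n = 3 each), a log2 difference of 0.01 (standard error 0.18, 95% interval -0.40 to 0.43; edgeR's quasi-likelihood test, p = 0.939, Benjamini-Hochberg adjusted p = 0.9999; exact permutation p = 1). In folds the interval is 0.758 to 1.35. Without DMNT replicate 1 the log2 value was -0.16, and without DMNT replicate 2 it was 0.16.

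**Figure D2:**
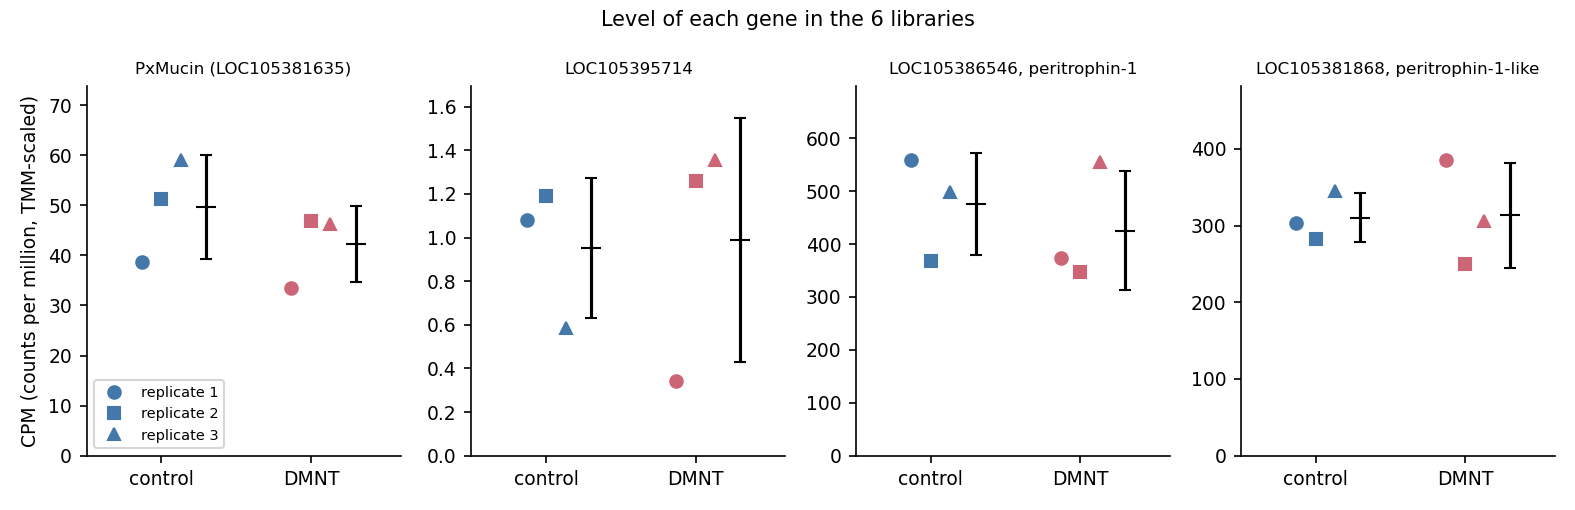
CPM after TMM scaling of PxMucin, LOC105395714, LOC105386546 and LOC105381868, 1 panel each with its own linear axis from 0. Points are the 3 control and 3 DMNT libraries, with marker shapes for the replicate numbers, and the bars give the mean and SD. In every panel the groups overlap, and DMNT replicate 1 is lowest for PxMucin (33.5 CPM) and LOC105395714 (0.343 CPM) and highest for LOC105381868 (386 CPM).

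The study called a gene changed at an absolute log2 fold change of 1 or more with an unadjusted p under 0.05. In the edgeR fit made here, which is not the study's own test, 0 of the 4 genes passed these thresholds. Over all genes tested, 0.870% passed, 0.367% as higher and 0.503% as lower. An unadjusted p under 0.05 by edgeR's quasi-likelihood test was found for 0 of the 4, against 3.43% of all genes, and an adjusted p under 0.05 for 0 of the 4, against 0.0113%. DESeq2 and limma called 0 of the 4 as well. The log2 fold change was below 0 for 2 of the 4 and for 50.6% of all genes. The groups did not overlap for 0 of the 4, against 8.37% of all genes. The spread between libraries differed among the 4 genes. The biological coefficient of variation was 19.5% for LOC105381868, 21.2% for PxMucin, 22.6% for LOC105386546 and 47.0% for LOC105395714, beside a common value of 29.0% for all genes. Of the genes tested, 32.6% had a lower value than PxMucin and 94.0% a lower value than LOC105395714, the least abundant of the 4.

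**Figure D3:**
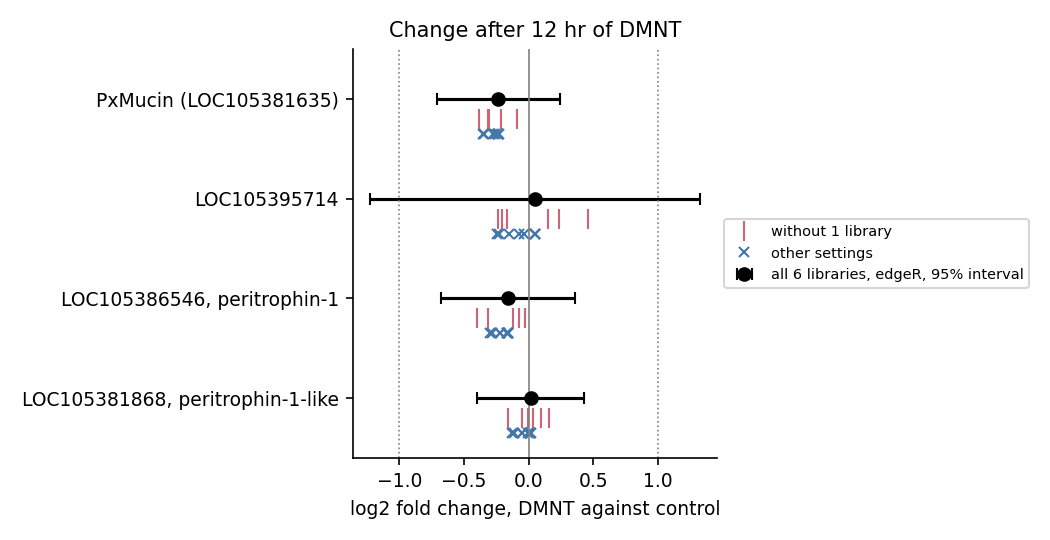
Log2 fold change of the 4 genes (DMNT over control, edgeR's quasi-likelihood fit) on the x axis, with black points and lines for the estimates and 95% intervals, red ticks for the fits without 1 library, blue crosses for the other settings and dotted lines at the fold threshold of 1. Zero lies inside all 4 intervals, and that of LOC105395714, from -1.23 to 1.32, is the widest.

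**Figure D4:**
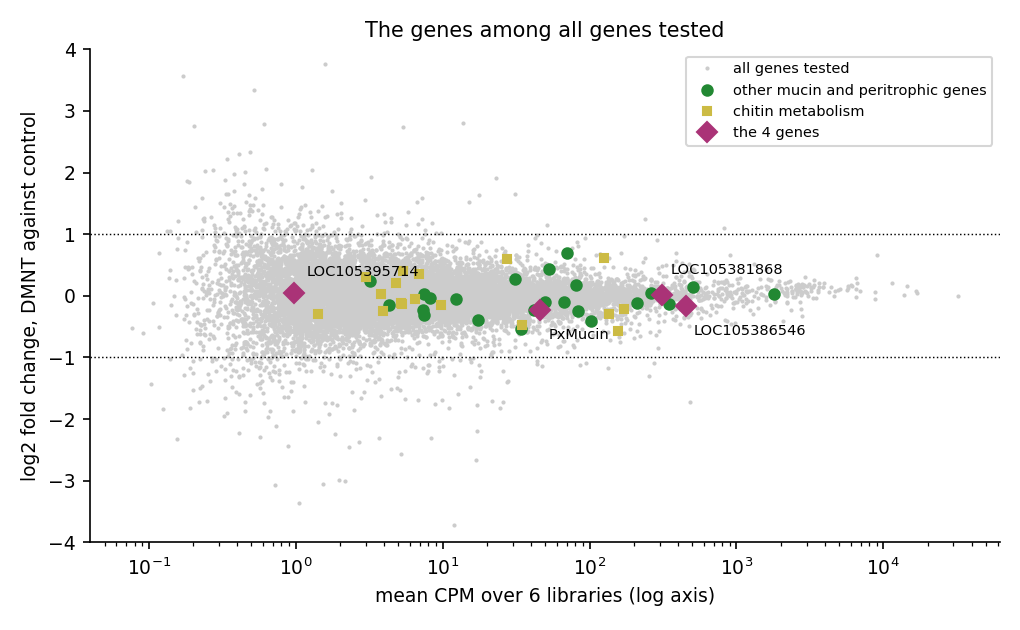
Log2 fold change (y axis) against mean CPM over the 6 libraries (x axis, log scale), with the 4 genes as purple diamonds, other mucin and peritrophic genes in green, chitin metabolism genes in yellow and all genes tested in grey. Dotted lines mark the fold threshold of 1. The 30 genes beyond a log2 fold change of 4 in size are not drawn. The 4 genes lie between -0.23 and 0.05, with LOC105395714 at a far lower mean CPM than the peritrophins.

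The changes were also computed against internal references, as differences between the group means of log2 ratios. RPL32 (LOC105387458) and RPS13 (LOC105388947), ribosomal protein genes that served as the study's qRT-PCR references, stood at 2209 to 2855 and 1885 to 2515 CPM. Their own log2 fold changes were 0.10 and 0.12 (standard error 0.14 each), smaller than their errors. As 1000 times the ratio to their geometric mean, PxMucin was at 17.2, 25.1 and 23.1 in the control and at 13.7, 20.7 and 17.3 after DMNT. The groups still overlapped, with a difference of -0.34 on the log2 scale (exact permutation test, two-sided, p = 0.3). On this scale LOC105395714 differed by -0.23, LOC105386546 by -0.28 and LOC105381868 by -0.12 (exact permutation p = 0.7, 0.3 and 0.4).

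Relative to the summed digestive enzymes of the midgut, again as 1000 times the ratio, PxMucin was at 1.52, 1.88 and 2.18 in the control and at 1.13, 1.66 and 1.58 after DMNT. This was a difference of -0.35 on the log2 scale (exact permutation test, two-sided, p = 0.3), and control replicate 1 again lay below DMNT replicates 2 and 3. LOC105395714 differed by -0.24 on that scale, LOC105386546 by -0.30 and LOC105381868 by -0.13 (exact permutation p = 1, 0.3 and 0.7). All 4 signs were negative with either reference, but the 4 genes share its denominator. The references' own estimates were positive, at 0.10 and 0.12 for RPL32 and RPS13 and 0.12 for the midgut sum. The 4 signs are therefore not 4 separate results. After TMM scaling alone, edgeR's fitted log2 fold changes of LOC105395714 and LOC105381868 were 0.05 and 0.01. Those are not differences of mean log2 levels as here, so the change of sign cannot be assigned to the reference. With no reference, their differences of mean log2(FPKM + 0.1) were already negative, at -0.15 and -0.051. The groups of all 4 overlapped on each of the 3 scales.

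Ratios within a library do not depend on how libraries are scaled. The FPKM ratio of PxMucin to LOC105395714 was 15.1, 18.2 and 43.0 in the control and 43.9, 15.7 and 14.5 after DMNT. It was high in control replicate 3 and DMNT replicate 1, the libraries in which LOC105395714 was low, and 14.5 to 18.2 in the other 4 libraries. The ratio to LOC105386546 was 0.0276, 0.0557 and 0.0473 in the control and 0.0358, 0.0540 and 0.0334 after DMNT. The ratio to LOC105381868 was 0.0405, 0.0579 and 0.0545 in the control and 0.0276, 0.0599 and 0.0483 after DMNT. The groups overlapped for each ratio. The log2 differences were -0.08, -0.06 and -0.23 (exact permutation tests, two-sided, p = 0.8, 0.9 and 0.7, Benjamini-Hochberg adjusted p = 0.9 for all 3 ratios). Each of the 3 differences changed sign with some library left out. The difference of the ratio to LOC105395714 became 0.37 without control replicate 3, that of the ratio to LOC105386546 0.15 without control replicate 2, and that of the ratio to LOC105381868 0.094 without DMNT replicate 1.

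Co-variation between the 4 genes was described over the 6 libraries, which share depth and body composition, for 6 pairs on the log2 CPM scale. PxMucin and LOC105395714 had a Pearson's r of 0.37 (exact permutation p = 0.454) and a Spearman's rho of 0.20 (p = 0.714, exact permutation). With LOC105386546 PxMucin had r = 0.09 (exact permutation p = 0.854) and rho = -0.31 (exact permutation p = 0.564), and with LOC105381868 r = -0.35 (exact permutation p = 0.506) and rho = -0.31. DMNT replicate 1 was low in PxMucin and high in LOC105381868, which is the main contrast between their profiles. The peritrophins had r = 0.22 (exact permutation p = 0.647) and rho = 0.43 (exact permutation p = 0.419) between them. LOC105395714 and LOC105386546 had r = 0.19 and rho = -0.09 (exact permutation p = 0.682 and 0.919).

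The strongest of the 6 relations was between LOC105395714 and LOC105381868, with r = -0.88 (exact permutation p = 0.0139, Benjamini-Hochberg adjusted p = 0.0833 over 6 pairs) and rho = -0.66 (exact permutation p = 0.175, adjusted p = 0.846). It rests on control replicate 3 and DMNT replicate 1, in which LOC105395714 was low and LOC105381868 high: without them r was -0.17. For PxMucin the same omission gave r = 0.58 with LOC105395714, -0.69 with LOC105386546 and -0.42 with LOC105381868. For LOC105395714 with LOC105386546 it gave -0.10. The peritrophins, without control replicate 1 and DMNT replicate 3, had r = 0.50. The adjusted p was above 0.05 for all 6 pairs, which does not show that the genes vary independently.

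For each gene the described genes with the most similar profile were looked for among 4303 genes with a mean of at least 10 CPM, or 4304 for LOC105395714, by Pearson's r of log2 CPM over the 6 libraries. Genes whose symbol stands in several rows or is joined with another were left out, among them mucin-19-like LOC105387935. The r values are a description, and nothing on shared function follows from them. For PxMucin they were a putative acyl-CoA-binding protein (LOC105396281, r = 0.98), the beta-1,3-glucan-binding protein-like gene LOC105389841 (r = 0.98) and a trpm-like cation channel (LOC105380372, r = 0.98). The acyl-CoA-binding protein had 93.8, 149 and 219 CPM in the control and 75.9, 141 and 153 CPM after DMNT. LOC105389841, by name a recognition protein for microbial glucan, had 27.1, 34.3 and 36.0 CPM in the control and 23.4, 31.6 and 32.3 CPM after DMNT. Both follow the order of PxMucin closely, with control replicate 3 highest and DMNT replicate 1 lowest.

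LOC105386546 most resembled a scavenger receptor class B member 1 (LOC105392433, r = 0.996), the FTZ-F1-like nuclear hormone receptor LOC105381630 (r = 0.99) and a DDB1- and CUL4-associated factor 13-like gene (LOC105387384, r = 0.99). FTZ-F1 is known in Drosophila as a regulator of moulting and metamorphosis that is expressed in a short window after a pulse of ecdysone. LOC105381630 had 511, 302 and 421 CPM in the control and 314, 299.6 and 493 CPM after DMNT, and its libraries had the same rank order as those of the peritrophin (rho = 1.0). LOC105386546 also had the most genes with a similar profile: 89, 2.07% of those compared, had an r of at least 0.9 with it. For PxMucin there were 34 such genes (0.790%), for LOC105395714 25 (0.581%) and for LOC105381868 15 (0.349%). The counts rest on the same 6 libraries and carry no test.

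LOC105395714 most resembled latrophilin Cirl (LOC105381165, r = 0.99), a brefeldin A-inhibited guanine nucleotide-exchange protein (LOC105382243, r = 0.98) and an akirin-like gene (LOC105389837, r = 0.96). LOC105381868 most resembled a PDZ and LIM domain protein (LOC105395010, r = 0.98), a prenylated Rab acceptor protein (LOC105382478, r = 0.97) and a succinate dehydrogenase assembly factor (LOC105387317, r = 0.96). Each of the 4 genes thus had its own closest genes. None of the 12 was a mucin, a peritrophin or an enzyme of chitin metabolism, but such genes were few among those compared. Besides the members, their lists held only 24 and 17 tested rows, so this absence shows little.

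**Figure D5:**
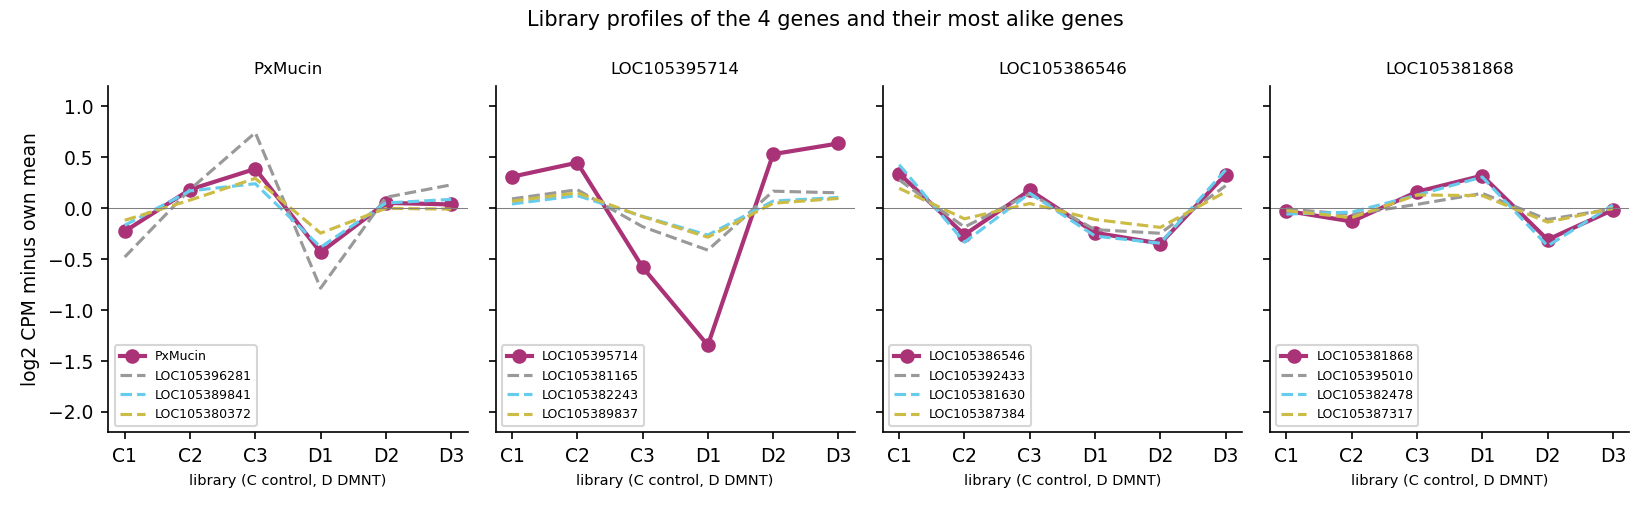
Profile of each of the 4 genes (solid purple line) and of its 3 most similar described genes (dashed lines) over the libraries C1 to C3 (control) and D1 to D3 (DMNT), as log2 CPM minus the gene's own mean. Lines join the values of 1 gene, and replicates have no order. LOC105395714 drops in control replicate 3 and DMNT replicate 1, by more than its 3 similar genes, and LOC105381868 is at its 2 highest levels there, 345 and 386 CPM.

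The other rows of the peritrophic matrix and mucin set give the setting for the 4 genes. Without the 3 members that its words select, it held 32 rows, of which 1 was at 0 in every library and 24 were tested. By edgeR's quasi-likelihood test 0 of the 24 passed the study's thresholds as higher and 0 as lower, and 0 had an unadjusted p under 0.05. DESeq2 and limma called 0 as well. The log2 fold changes were negative for 15 and positive for 9, with a median of -0.10 where the median of all genes tested was -0.00. The groups did not overlap for 1 of the 24, where they did not for 8.37% of all genes tested. It was mucin-5AC (LOC105388631), at 20.5, 19.7 and 19.1 CPM in the control and 12.0, 17.1 and 16.3 CPM after DMNT. Its log2 difference was -0.38 (standard error 0.18), and its lowest library was again DMNT replicate 1.

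The mucin-5AC-like gene LOC105392527 resembled PxMucin in its order, with 94.0, 121 and 134 CPM in the control and 73.9, 96.8 and 93.6 CPM after DMNT, for a log2 difference of -0.40 (standard error 0.18). Mucin-17-like LOC105393005 was at 0.27 (standard error 0.17). A row that joins the mucin-19-like gene LOC105391292 with a cuticle protein gene, LOC105391271, was at 0.70 (standard error 0.35). It passed the thresholds, as higher, once control replicate 3 was left out, and its reads cannot be assigned to the mucin.

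Enzymes selected by words for the metabolism of chitin, the fibre to which peritrophins bind, formed a set of 21 rows with 17 tested. The tested rows were chitinases and other glycosidases, some of whose descriptions do not name chitin, and an aminotransferase (LOC105398114). None was described as a chitin synthase or chitin deacetylase, so the set says little on how chitin is made. By edgeR's quasi-likelihood test 0 passed the thresholds in either direction and 1 of 17 had an unadjusted p under 0.05, where 3.43% of all genes did. DESeq2 and limma called 0. Of the 17, 10 had a negative and 7 a positive log2 fold change, with a median of -0.11. The gene with the smallest p was the endochitinase LOC105389028, a chitin-degrading enzyme, with 163, 251 and 146 CPM in the control and 153, 126 and 98.0 CPM after DMNT. It is the gene with an unadjusted p under 0.05, but its log2 difference of -0.57 (standard error 0.24) is under the fold threshold, its adjusted p by edgeR with Benjamini-Hochberg adjustment is 0.9999, and the groups overlapped. The chitinases LOC105385677 and LOC105385326 and the endochitinase-like LOC105394641 were at 0.41, -0.21 and -0.48 (standard errors 0.24, 0.12 and 0.31). Without control replicate 2, a pair of genes described as probable chitinase 3, LOC105394199 and LOC105382027, passed as higher, at 1.43 and 1.39. Of the 141 tested digestive enzymes of the midgut, 3 were lower and 0 higher at the thresholds, beside 0.503% lower and 0.367% higher among all genes. Their groups did not overlap for 27 of the 141, beside 8.37% of all genes. The log2 fold change was negative for 60 and positive for 81, with a median of 0.04. The 3 called lower were trypsin, alkaline C-like (LOC105383571), trypsin-1-like (LOC105384556) and the chymotrypsin-like protease LOC105397690. With a filter at a mean FPKM of at least 2, LOC105383571 alone passed. Without control replicate 3, 1 of the 3 passed, LOC105397690.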

How the data were processed

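The labels' titles give the group and replicate number of each library. Total RNA was made into poly(A), dUTP-marked libraries. The authors trimmed and filtered reads in cutadapt, mapped them to the species' NCBI reference in Hisat and used StringTie for assembly and quantification, with no versions named. HISAT, StringTie and edgeR are the tools in the submitters' processing notes. The deposited counts are unscaled whole numbers. The counting program and its use of strand are not given in the sources used here. Overlapping genes and close paralogs may therefore share reads. The authors computed the deposited FPKM from length and mapped reads. The length implied by count and FPKM was nearly constant across libraries for PxMucin (2276 to 2283 bases), LOC105386546 (910 to 913) and LOC105381868 (725 to 727), and ranged from 963 to 1027 for LOC105395714, whose FPKM are low and given to 2 decimals. Both units thus carry one measurement.

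Rows under a mean FPKM of 0.5 were dropped. Counts after TMM scaling went into edgeR 4.0.16 (quasi-likelihood, no covariate) in R 4.3.3, with Benjamini-Hochberg adjustment over all genes tested. The standard error is derived from the F statistic (absolute log2 fold change over its root), and the 95% interval uses the test's degrees of freedom. Calls used the study's thresholds. Exact tests used scipy 1.17.1. Every pair of libraries was farther apart than sampling noise (mean chi-square per gene 52.0 to 145, where 1 is repeated sampling), so none was a copy. Libraries with the same number deviated together (r of deviations from group means 0.103, 0.102 and 0.195), every pair over the 0.1 set for pairing, though control replicate 2 with DMNT replicate 1 gave 0.110. The numbers come from the labels, which do not say what they mark.

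The 4 genes and the lists were chosen with earlier results of these data known. Lists were selected by words in the deposited descriptions, among them markers of the midgut, fat body, muscle, cuticle, silk gland and nervous system. Named besides the 4 were the 4 genes with the smallest p in the mucin and chitin lists, the reference genes and the 3 most similar described genes for each of the 4. LOC105394905, LOC105387177, the genes named for passing in a list and those of the other observations were chosen after their values were seen. Alternatives were DESeq2 1.42.0, limma 3.58.1 on log2(FPKM + 0.1) or log2(FPKM + 1), median-ratio scaling, other filters, the replicate block, the references above and leaving out each library. The authors' own tests were not used, nor was a genome. The edgeR fit was tested on simulated data.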

Additional observations from a re-analysis of the deposited data

How the results depend on the processing

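No alternative brought any of the 4 genes past the thresholds. Of 156 alternative values over all results, 117 kept their direction, their side of the threshold or, for counts, their size. The negative sign of PxMucin and of LOC105386546 held under every setting, with ranges of -0.39 to -0.09 and -0.40 to -0.03 over single omitted libraries. LOC105395714 and LOC105381868, both near 0, changed sign, and their values relative to the references are differences of mean log2 levels. LOC105395714 was at -0.15 and -0.040 with limma on log2(FPKM + 0.1) and log2(FPKM + 1), -0.077 with the replicate block, -0.23 relative to RPL32 and RPS13, -0.24 relative to midgut enzymes and -0.24 to 0.46 over omitted libraries. LOC105381868 was at -0.051 with both limma settings, -0.0039 with the replicate block, -0.12 and -0.13 relative to those references and -0.16 to 0.16 over omitted libraries. With the replicate block PxMucin was at -0.23. Its p by edgeR's quasi-likelihood test was 0.107 with the block and 0.287 without it. The block changed no call of the 4 genes. The ratio of PxMucin to LOC105395714 ranged over omitted libraries from -0.60 to 0.37, that to LOC105386546 from -0.36 to 0.15 and that to LOC105381868 from -0.46 to 0.094. The correlation of PxMucin with LOC105386546 was -0.042 after centring on group means. Relative to RPL32 and RPS13 the peritrophins had r = -0.063, and LOC105395714 with LOC105381868 r = -0.71 (exact permutation p = 0.135). The causes were not tested.

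Over all genes, 154 passed the thresholds, 240 with no filter, 84 with a stricter filter (fewer genes tested), 82 with limma on log2(FPKM + 1) and 162 to 271 over omitted libraries, of which control replicates 2 and 3 gave 259 and 238 and DMNT replicate 2 gave 271. The mucin list had 0 to 1 over omitted libraries. The chitin list had 1 with no filter (LOC105383909, lower) and 0 to 2 over omitted libraries. The midgut list had 1 with the stricter filter, 1 with limma on log2(FPKM + 1) and 1 to 3 over omitted libraries (1 without control replicate 3). Depth limits only LOC105395714, with 16 to 69 counts, for which the stricter filter leaves no value.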

Other observations

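In a newer RefSeq annotation of the species (assembly GCF_932276165.1), used only for names and neighbours, PxMucin and LOC105395714 lie on one chromosome. There are 2 protein-coding genes between them, and the peritrophins have other neighbours. Among the authors' assembled loci PxMucin and LOC105395714 carry the running numbers 3972 and 15204. These numbers give no distance: LOC105382246, next to LOC105395714 in the newer annotation, is number 451. The gene on the other side of PxMucin, the uncharacterized LOC105392890, had 4.31, 4.27 and 3.62 CPM in the control and 1.35, 4.33 and 4.98 CPM after DMNT. It was low in DMNT replicate 1, as were PxMucin and LOC105395714. Its log2 fold change was -0.20 (standard error 0.43), and over the 6 libraries it had r = 0.92 with LOC105395714 and r = 0.62 with PxMucin, given as a description. Other neighbours differed. In unscaled counts the next gene on that side, LOC105392891, had 2013 in DMNT replicate 1 and 1360 to 2005 elsewhere. LOC105381614, between PxMucin and LOC105395714, had 338 there and 355 to 542 elsewhere. LOC105382246, on the other side of LOC105395714, had 583 there and 780 to 1281 elsewhere.

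Among other abundant genes of the peritrophic matrix and mucin set, mucin-19-like LOC105387935 had 407, 254 and 432 CPM in the control. It had 306, 241 and 451 CPM after DMNT. It was high and low in the same libraries as peritrophin-1 LOC105386546 (r = 0.95 over 6 libraries). The peritrophin-1-like gene LOC105387177 had 197, 308 and 275 CPM in the control and 256, 314 and 232 CPM after DMNT, and ran opposite to LOC105386546 (r = -0.81). Neither changed between the groups beyond its spread, as their log2 differences were -0.13 and 0.04 with standard errors of 0.27 and 0.20. These genes were picked after their values were seen, so the correlations are descriptions without a test.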
